A study of Mus musculus with 2 samples.

Results

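Genes of the BCL-2 family were followed across cells described as splenocytes of infected mice: *Bcl2*, *Bcl2l1*, *Mcl1*, *Bcl2a1b*, *Bcl2a1d*, *Bax*, *Bak1*, *Bcl2l11*, *Bbc3* and *Pmaip1*. They were chosen by name, with earlier results of these data known, as 10 of the 32285 genes counted. All 10 had UMIs (unique molecular identifiers, each standing for 1 captured RNA molecule) in all 4 libraries. The study compared C57BL/6 mice with the wild type *Ptpn22* gene (PEP-WT) and mice homozygous for a CRISPR/Cas9-made *Ptpn22* allele that mirrors a human autoimmunity variant (PEP-619WW), both infected with the chronic lymphocytic choriomeningitis virus strain LCMV-cl13. At day 8 of infection, splenocytes of 4 to 5 age- and sex-matched mice per genotype were pooled, sorted for live CD45+ cells and profiled by droplet 3′ single-cell RNA sequencing. The mutation is carried in every cell of the mouse, so a difference in any cell type may arise within it or outside it. The sample labels name liver, Jurkat cells and tumor infiltrating cells, whereas the protocol and the design text describe splenocytes. The hepatocyte markers *Alb*, *Ttr* and *Serpina1a* had 0 UMIs in the gated populations of run 1 and *Apoa1* had 1 UMI in each of the PEP-619WW B and plasma gates, and the T cell, B cell, plasma cell and neutrophil markers were present. Since the cells were sorted for CD45 and gated on immune cell markers, these counts cannot tell splenocytes from immune cells of another tissue. The 3′ counts do not read the mutated codon, so they do not check the genotype labels.

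Each genotype had 1 library in each of 2 deposited runs, whose relation the labels do not give. The PEP-WT library counted 14821 barcodes in run 1 and 9539 in run 2, and the PEP-619WW library 8576 and 11029. The run 2 numbers are the cell numbers in the study's methods. Runs were kept apart and were not treated as replicates. Because the mice of a genotype were pooled, no test between genotypes was possible, and every interval below covers counting error at the 95% level only. In run 2, 6.60% of the barcodes labelled PEP-WT and 21.1% of those labelled PEP-619WW passed any of the gates used here, against 66.8% and 66.9% in run 1. Run 2 also had 431 (PEP-WT) and 44 (PEP-619WW) barcodes with UMIs of at least 3 melanocyte genes, and run 1 had 0 and 0. PEP-WT of run 2 held 2 B and 0 plasma barcodes. The 4 hepatocyte markers had 0 UMIs in the gated populations of run 2 as well. As these markers cannot name the tissue of sorted immune cells, the tissue of neither run was established by them. Pairs of libraries shared between 19 and 49 barcodes. Run 1 therefore carries the description below, with run 2 beside it where at least 50 barcodes passed a gate.

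Barcodes were sorted by a few marker UMIs. CD8 T barcodes carried *Cd3e* and *Cd8b1* and were split by granzyme B, a killing enzyme of activated cytotoxic cells, into those with no *Gzmb* UMI (Gzmb-zero) and those with 3 or more (Gzmb-high). CD4 T barcodes carried *Cd3e* and *Cd4*, B barcodes *Cd79a* and *Ms4a1*, plasma barcodes at least 5 *Mzb1* UMIs, and neutrophil barcodes at least 20 *S100a8* and *S100a9* UMIs in all. In run 1 these gates took in 487, 791, 361, 6937, 2361 and 806 PEP-WT barcodes and 127, 727, 261, 3144, 1893 and 864 PEP-619WW barcodes, in that order. The gates overlap, and 18.5% (PEP-WT) and 21.4% (PEP-619WW) of gated barcodes fell in more than 1 gate, reaching 64.8% of the PEP-WT plasma barcodes. UMIs were summed over the barcodes of a population and expressed as counts per 1000000 UMIs (CPM). Reads of a 3′ library cover only the end of a transcript, so levels are compared between populations for 1 gene and not between genes.

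The BCL-2 family sets whether a cell keeps its mitochondria intact or enters apoptosis. *Bcl2*, *Bcl2l1* (BCL-XL), *Mcl1* and the *Bcl2a1* copies (A1) encode proteins that hold cell death in check. *Bax* and *Bak1* encode the effectors that open the outer mitochondrial membrane. *Bcl2l11* (BIM), *Bbc3* (PUMA) and *Pmaip1* (NOXA) encode BH3-only proteins, which bind the guardians or activate the effectors and so push a cell toward death. In lymphocytes, BCL-2 is sustained by interleukin-7 and BIM removes activated cells as a response contracts, and short-lived neutrophils depend on MCL-1.

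The guardians divided the populations differently. *Bcl2*, on the minus strand of chromosome 1 at chr1:106538178-106714274 (GRCm38), was highest in the Gzmb-zero CD8 T and CD4 T gates and lowest in neutrophils. In PEP-WT run 1 its level was 202 CPM in Gzmb-zero CD8 T, 147 in CD4 T, 92.4 in B, 67.2 in Gzmb-high CD8 T, 41.7 in plasma and 29.4 in neutrophil barcodes. No neighbours in that order had overlapping intervals, and the span from top to bottom was 6.89-fold. In PEP-619WW run 1 the levels were 195 CPM in Gzmb-zero CD8 T, 201 in CD4 T, 77.1 in B, 76.0 in Gzmb-high CD8 T, 30.5 in plasma and 23.2 in neutrophil barcodes. There the CD4 T and Gzmb-zero CD8 T intervals overlapped, as did those of B and Gzmb-high CD8 T. In PEP-619WW run 2 the order changed for CD4 T, which stood at 37.6 CPM (31.9 to 43.9) beside 150.1 (131 to 171) in Gzmb-zero CD8 T.

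*Mcl1*, at chr3:95658788-95663176 on the plus strand, had the opposite top. Neutrophil barcodes held 833 CPM (809 to 857) in PEP-WT and 716 CPM (693 to 738) in PEP-619WW of run 1. The other 5 populations lay between 262 and 379.7 CPM (PEP-WT) or 257 and 381 CPM (PEP-619WW), so neutrophils did not overlap with any of them. Run 2 neutrophils held still more, 1446 CPM in PEP-WT and 1754 CPM in PEP-619WW, beside 318 to 635 CPM in the 4 lymphocyte gates of PEP-619WW run 2. After each barcode was thinned to 1000 UMIs, an *Mcl1* UMI was found in 62.6% (PEP-WT) and 52.7% (PEP-619WW) of neutrophil barcodes of run 1. The thinned share was 34.8% and 34.6% in B barcodes, the next highest population, and 21.6% and 19.5% in Gzmb-high CD8 T barcodes. At full depth the shares were 94.7% and 82.1% in neutrophils and 74.0% and 82.7% in Gzmb-high CD8 T, whose barcodes were deeper (median 7521 and 9170 UMIs, against 3482 and 3664). Across the 12 population sums of run 1, the genes whose log CPM followed *Mcl1* most closely among 12478 were *Zfp36* (Pearson r = 0.985), *Gadd45a* (0.983) and *Tpd52* (0.983). For *Bcl2* they were *Nipsnap1* (0.978), *Zfp827* (0.974) and *Prrc2c* (0.971). The 12 sums come from only 2 libraries and share their depth and their overlapping barcodes, so these are descriptions.

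*Bcl2l1* was low throughout, from 7.28 CPM in B to 18.7 CPM in CD4 T barcodes of PEP-WT, and from 7.25 CPM in B to 20.8 CPM in Gzmb-high CD8 T of PEP-619WW. In PEP-WT the CD4 T, Gzmb-high CD8 T and neutrophil levels (17.0 CPM) had overlapping intervals. In run 2 the neutrophil levels were 77.6 CPM in PEP-WT and 102 CPM in PEP-619WW. In that PEP-619WW library neutrophils were highest, without overlap with the next gate, CD4 T at 34.5 CPM.

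**Figure D1:**
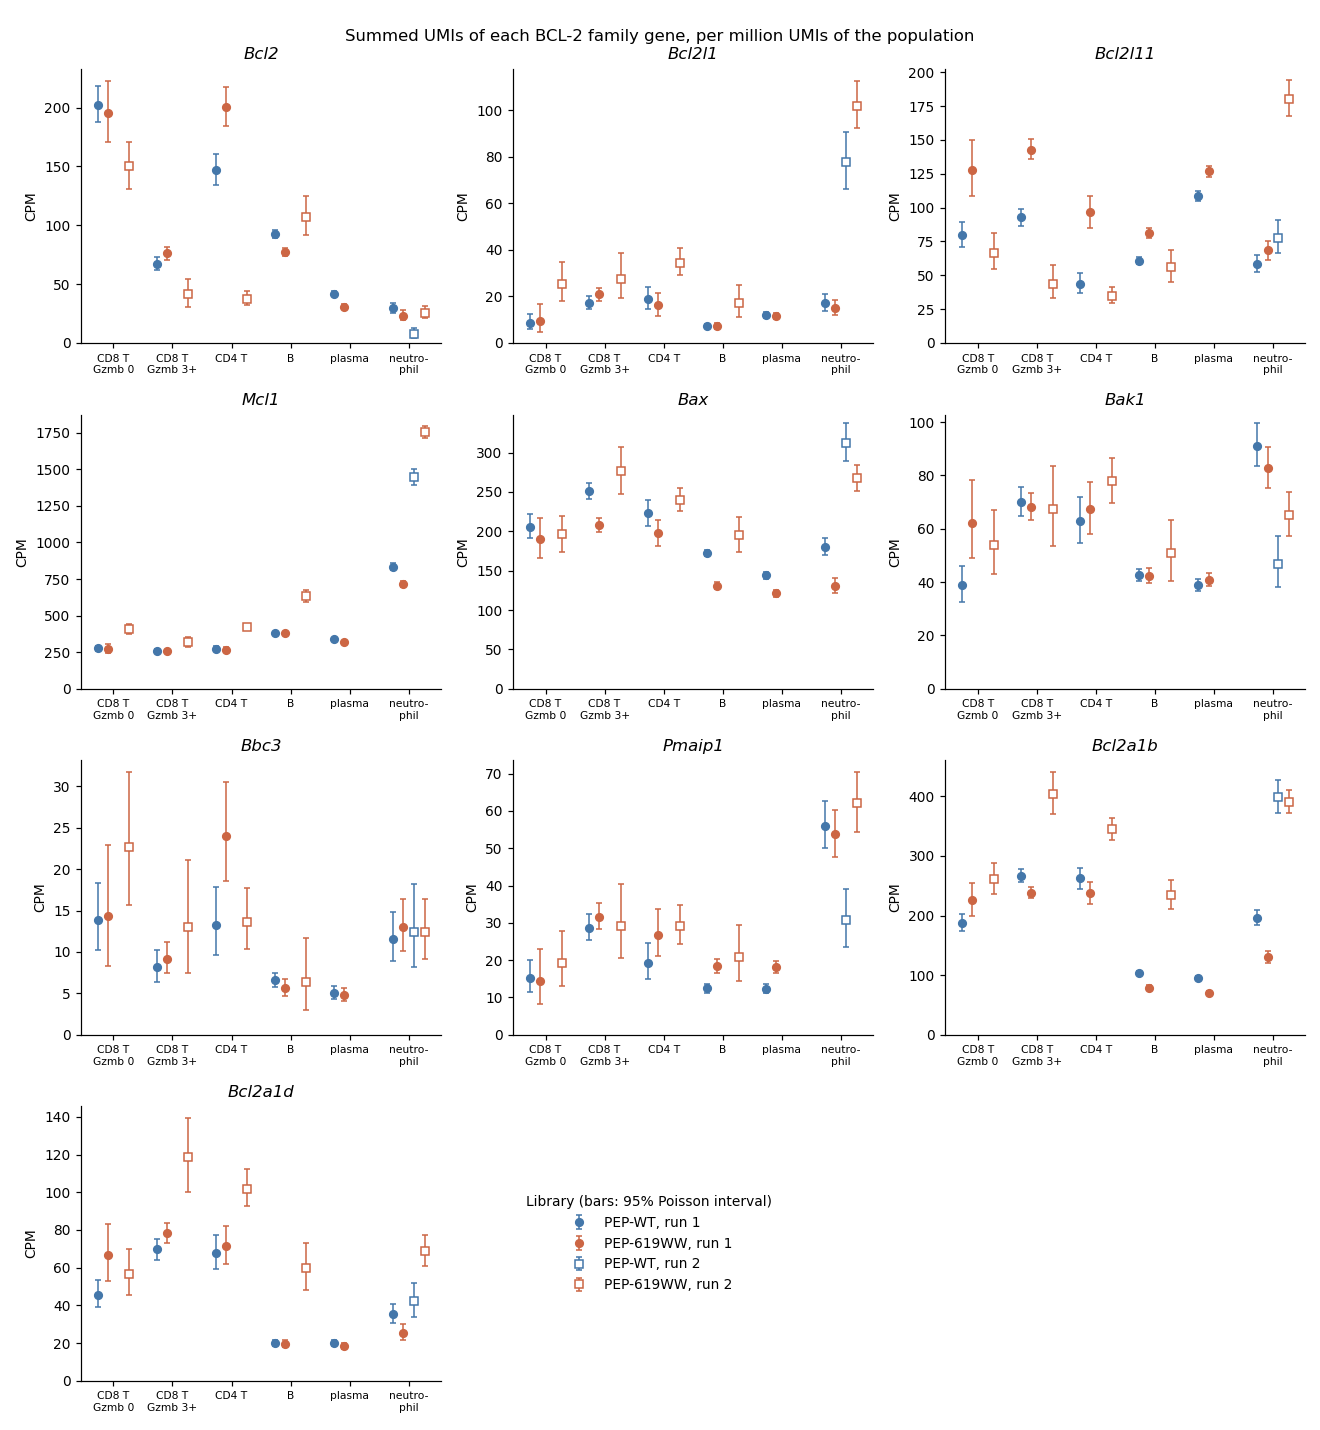
Summed UMIs of each BCL-2 family gene as CPM (linear axis from 0) in 6 gated populations, with 1 point per library and bars for the 95% Poisson interval. Filled circles are run 1 and open squares run 2, blue is PEP-WT and red PEP-619WW, and gates with under 50 barcodes are left out. *Bcl2* falls from 202 CPM in Gzmb-zero CD8 T to 29.4 CPM in neutrophils of PEP-WT run 1, while *Mcl1* peaks in neutrophils in the 3 libraries with other gates to compare.

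A1 is encoded in the mouse by several near-identical copies, of which *Bcl2a1b* lies at chr9:89199209-89207827 on the plus strand and *Bcl2a1d* at chr9:88723285-88731914 on the minus strand (GRCm38). How alike they are decides how far their counts can be told apart. The last 180 coding bases, stop codon included, are shown for both and for the further copy *Bcl2a1a*, with capitals at the 3 positions where they are not all the same.
Bcl2a1b: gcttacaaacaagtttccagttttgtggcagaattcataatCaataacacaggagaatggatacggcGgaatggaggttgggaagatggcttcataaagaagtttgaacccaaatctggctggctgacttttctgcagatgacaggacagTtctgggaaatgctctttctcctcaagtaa
Bcl2a1d: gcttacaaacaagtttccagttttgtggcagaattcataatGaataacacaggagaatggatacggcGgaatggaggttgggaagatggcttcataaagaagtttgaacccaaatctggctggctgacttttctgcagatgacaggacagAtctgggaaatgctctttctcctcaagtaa
Bcl2a1a: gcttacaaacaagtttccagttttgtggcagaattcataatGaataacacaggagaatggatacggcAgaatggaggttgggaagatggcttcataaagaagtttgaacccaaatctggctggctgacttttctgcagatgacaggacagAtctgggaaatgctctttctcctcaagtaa
In these GENCODE transcripts, the bases after the stop codon are the same in *Bcl2a1b* and *Bcl2a1d* over the shorter of the tails (147 and 149 bases). A 90-base read, the length of read 2 here, was slid over the last 500 bases of each transcript, which gave 411 windows. Of these, 39.4% of *Bcl2a1b*, 65.2% of *Bcl2a1d* and 39.7% of *Bcl2a1a* windows occur unchanged in another of the 3 copies. Cell Ranger counts only reads that fit 1 gene, so the counts rest on the remaining windows and the split between copies is uncertain.

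With that limit, *Bcl2a1b* of run 1 was highest in Gzmb-high CD8 T (267 CPM in PEP-WT, 239 in PEP-619WW) and CD4 T barcodes (262 and 238), with overlapping intervals in each genotype. In PEP-619WW the interval of Gzmb-zero CD8 T (226 CPM, 200 to 254) overlapped those of both. The lowest levels were in plasma barcodes, at 94.9 CPM in PEP-WT and 69.6 CPM in PEP-619WW. In PEP-619WW run 2 Gzmb-high CD8 T (404 CPM) and neutrophils (391 CPM, 372 to 411) overlapped at the top, and neutrophils lay above CD4 T (345 CPM, 327 to 363) without overlap. *Bcl2a1d* of run 1 ranged from 69.6 and 78.4 CPM in Gzmb-high CD8 T, overlapping with CD4 T, to 19.98 and 18.2 CPM in plasma barcodes, overlapping with B (20.02 and 19.7 CPM). In PEP-619WW run 2 its highest level was again in Gzmb-high CD8 T (119 CPM) and its lowest in Gzmb-zero CD8 T (56.7 CPM), which overlapped with B. The number of *Bcl2a1b* UMIs per *Bcl2a1d* UMI was not constant. In PEP-WT run 1 it was lowest in Gzmb-high CD8 T at 3.83 (3.51 to 4.19) and highest in neutrophils at 5.53 (4.75 to 6.47), and in PEP-619WW it was 3.04 (2.81 to 3.30) and 5.11 (4.26 to 6.17). Run 2 neutrophils had 9.47 (7.59 to 11.9) in PEP-WT and 5.69 (4.99 to 6.50) in PEP-619WW. *Bcl2a1b* UMIs per *Bcl2a1a* UMI ranged more widely in run 1, from 3.74 in neutrophils to 18.7 in Gzmb-zero CD8 T of PEP-WT and from 3.39 in neutrophils to 30.2 in CD4 T of PEP-619WW. The genes most like *Bcl2a1b* over the 12 sums were *Arf5* (r = 0.985), *C1d* (0.978) and *Ssbp4* (0.974).

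The copies also share their upstream sequence, shown here because *Bcl2a1b* and *Bcl2a1d* were highest in the same gate of each run 1 library. The 186 bases lie before both the RefSeq and the GENCODE start of each gene (RefSeq sequence, GRCm38.p6, chr9:89199023-89199208 on the plus strand for *Bcl2a1b* and chr9:88731915-88732100 on the minus strand for *Bcl2a1d*). Capitals mark GAGGAAGT, a purine-rich word of the type bound by PU.1, a factor of myeloid and B cells, which was chosen after the sequences were seen.
Bcl2a1b: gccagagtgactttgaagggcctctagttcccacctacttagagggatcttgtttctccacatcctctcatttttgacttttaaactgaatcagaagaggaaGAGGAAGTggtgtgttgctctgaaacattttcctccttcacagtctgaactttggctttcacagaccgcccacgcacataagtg
Bcl2a1d: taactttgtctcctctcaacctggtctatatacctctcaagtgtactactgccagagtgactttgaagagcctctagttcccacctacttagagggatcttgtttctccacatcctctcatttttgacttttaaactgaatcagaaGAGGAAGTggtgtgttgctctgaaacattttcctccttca
The word was searched on both strands and occurs once in each window. It occurs in 1.60% of 32851 RefSeq promoter windows cut in the same way, or in 1.87% of their 27025 genes. Of the 9 BCL-2 family genes with such a window only these 2 hold it. Since the word was picked from these 2 alike sequences, no enrichment is read from its presence in both. A match is a description of letters, not of a bound site.

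The effectors varied least. *Bax* ranged from 251 CPM in Gzmb-high CD8 T to 144 CPM in plasma barcodes of PEP-WT, 1.74-fold, and from 208 to 121 CPM in the same gates of PEP-619WW, 1.72-fold. *Bak1* was highest in neutrophils, at 91.2 CPM in PEP-WT and 82.7 CPM in PEP-619WW, and its interval there overlapped no other population in PEP-WT, while in PEP-619WW it overlapped those of Gzmb-zero CD8 T and CD4 T. Its lowest levels were 38.8 CPM in Gzmb-zero CD8 T of PEP-WT and 40.9 CPM in plasma barcodes of PEP-619WW. In run 2 the *Bak1* level of PEP-619WW neutrophils, 65.2 CPM, was no longer the highest, since CD4 T held 77.8 CPM.

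Among the BH3-only genes, *Bcl2l11* (chr2:128126038-128162547, plus strand) was spread over all populations. In PEP-WT run 1 it was 108 CPM in plasma, 92.8 in Gzmb-high CD8 T, 79.7 in Gzmb-zero CD8 T, 60.8 in B, 58.2 in neutrophil and 43.5 in CD4 T barcodes. The intervals of both CD8 T gates overlapped, as did those of B and neutrophils. The order was not the same in the other libraries. In PEP-619WW run 1 the CD8 T gates and plasma (143, 128 and 127 CPM) were at the top and neutrophils (68.3 CPM) at the bottom. In PEP-619WW run 2 neutrophils were highest at 181 CPM (167 to 194), without overlap with the next, Gzmb-zero CD8 T at 66.7 CPM, and CD4 T was lowest at 34.9 CPM. *Pmaip1* was highest in neutrophils, at 56.0 CPM in PEP-WT and 53.7 CPM in PEP-619WW, without overlap with the next population, Gzmb-high CD8 T (28.7 and 31.7 CPM), and again in PEP-619WW run 2 (62.1 against 29.2 CPM). *Bbc3* of run 1 lay between 5.03 and 13.8 CPM (PEP-WT) or 4.80 and 24.0 CPM (PEP-619WW), and plasma barcodes had the lowest value in both, overlapping with B.

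The number of UMIs of the guardian *Bcl2* per UMI of its BH3-only opponent *Bcl2l11* differed between populations of the same library, and is read only for that, since its size depends on how well each gene is counted. PEP-WT run 1 had 3.38 *Bcl2* UMIs per *Bcl2l11* UMI (2.80 to 4.09) in CD4 T, 2.54 (2.21 to 2.93) in Gzmb-zero CD8 T and 1.52 (1.44 to 1.61) in B barcodes. The ratio was 0.724 (0.652 to 0.805) in Gzmb-high CD8 T, 0.505 (0.415 to 0.611) in neutrophil and 0.384 (0.360 to 0.410) in plasma barcodes. In PEP-619WW run 1 it was 2.08 in CD4 T, 1.53 in Gzmb-zero CD8 T, 0.9497 in B, 0.532 in Gzmb-high CD8 T, 0.340 in neutrophil and 0.241 in plasma barcodes, lower than PEP-WT in 6 of 6 populations. The intervals of the genotypes overlapped only in neutrophils, and the populations come from the same libraries. In PEP-619WW run 2 the ratio was 2.25 in Gzmb-zero CD8 T, 1.92 in B, 1.08 in CD4 T, 0.944 in Gzmb-high CD8 T and 0.143 in neutrophil barcodes. The intervals of Gzmb-zero CD8 T and B overlapped there, as did those of CD4 T (0.853 to 1.36) and Gzmb-high CD8 T (0.631 to 1.41). In run 2 the PEP-WT neutrophils, with 0.0988 (0.0551 to 0.165), were below PEP-619WW, with intervals that overlapped. A ratio of 3′ counts compares populations for this pair of genes and does not give the balance of the proteins.

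**Figure D2:**
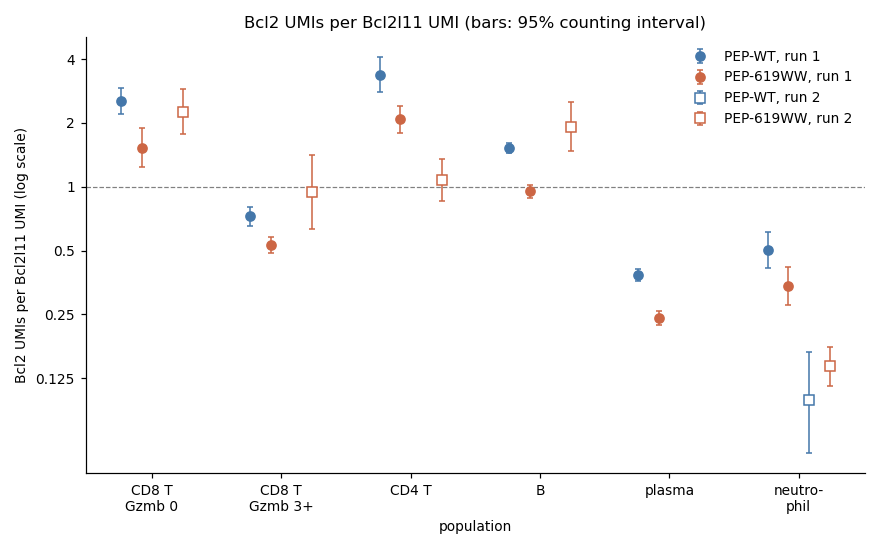
*Bcl2* UMIs per *Bcl2l11* UMI (log axis) in each population, with 1 point per library and bars for the 95% counting interval; circles are run 1, squares run 2, blue PEP-WT and red PEP-619WW. In run 1 the PEP-619WW points lie below the PEP-WT points in 6 of 6 populations, from 3.38 against 2.08 in CD4 T to 0.384 against 0.241 in plasma barcodes. All points are at full depth, and the ratio was not recomputed after thinning. These populations share the same libraries.

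The comparison between genotypes asked whether the *Ptpn22* allele goes with another level of these genes in the same population. A gene was called when it was at least 2-fold apart with at least 20 UMIs over both libraries, and all 10 members had that many in each comparison. *Bcl2l11* in CD4 T barcodes was the only member so called in run 1, in 1 of 6 populations. Of all genes, 4.92% were 2-fold apart in CD4 T, 5.92% in Gzmb-zero CD8 T, 4.75% in Gzmb-high CD8 T, 4.51% in B, 4.15% in plasma and 5.54% in neutrophil barcodes. The counts of members, 1 of 10 in CD4 T and 0 of 10 in the other populations, stand beside that background and do not set the family apart. At 1.5-fold, 2 members were apart in Gzmb-zero CD8 T (background 18.5%), 1 in Gzmb-high CD8 T (13.2%), 2 in CD4 T (17.6%), 0 in B (13.3%), 0 in plasma (12.5%) and 1 in neutrophils (17.9%).

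*Bcl2l11* was 43.5 CPM (36.7 to 51.3) in PEP-WT and 96.3 CPM (85.2 to 109) in PEP-619WW CD4 T barcodes, a log2 ratio of 1.15 (0.85 to 1.45). PEP-619WW was higher in the other populations as well. The levels were 79.7 and 128 CPM in Gzmb-zero CD8 T (log2 ratio 0.68, 0.39 to 0.98), 92.8 and 143 CPM in Gzmb-high CD8 T (0.62, 0.50 to 0.75) and 60.8 and 81.2 CPM in B barcodes (0.42, 0.33 to 0.51). They were 108 and 127 CPM in plasma (0.22, 0.16 to 0.29) and 58.2 and 68.3 CPM in neutrophil barcodes (0.23, 0.01 to 0.45). The barcodes in no gate also held more in PEP-619WW, 53.5 against 36.4 CPM. These populations come from the same 2 libraries and are not separate observations of the genotype. With barcodes in more than 1 gate left out, the ratio was 1.19 in CD4 T but 0.01 in plasma barcodes, and after thinning to 1000 UMIs it was 0.91 in CD4 T, under 2-fold, and -0.31 in plasma barcodes.

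*Bax* went the other way. It was lower in PEP-619WW in 6 of 6 populations of run 1, from 172.5 to 131 CPM in B barcodes (log2 ratio -0.40, -0.46 to -0.33) and from 181 to 131 CPM in neutrophils (-0.47, -0.61 to -0.33). In Gzmb-high CD8 T the levels were 251 and 208 CPM (-0.27), in plasma 144 and 121 CPM (-0.25) and in CD4 T 223 and 197 CPM (-0.18). In Gzmb-zero CD8 T the levels of 206 and 190.4 CPM were not distinguishable from equal (-0.11, -0.34 to 0.10). Without barcodes in more than 1 gate the plasma ratio was 0.07, and after thinning to 1000 UMIs the Gzmb-zero CD8 T ratio was 0.24, so the direction turned there. *Bak1*, the partner effector, showed no such direction, with a ratio between -0.14 and 0.10 in 5 populations. In Gzmb-zero CD8 T its ratio was 0.68 (0.25 to 1.10), from levels of 38.8 and 62.3 CPM. The populations share libraries and barcodes, and how many of all genes keep the same sign in 6 of 6 was not counted.

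The guardians differed by population. *Bcl2* was higher in PEP-619WW CD4 T barcodes (201 against 147 CPM, log2 ratio 0.45, 0.27 to 0.63) and lower in PEP-619WW plasma (30.5 against 41.7 CPM, -0.45, -0.58 to -0.32) and B barcodes (77.1 against 92.4 CPM, -0.26, -0.35 to -0.18). In Gzmb-high CD8 T its ratio was 0.18 (0.02 to 0.33). *Bcl2a1b* was lower in PEP-619WW in neutrophils (131 against 197 CPM, -0.59, -0.73 to -0.45), plasma (69.6 against 94.9 CPM, -0.45), B (79.2 against 104 CPM, -0.39) and Gzmb-high CD8 T barcodes (239 against 267 CPM, -0.16, -0.24 to -0.08), and higher in Gzmb-zero CD8 T (226 against 188 CPM, 0.27, 0.05 to 0.47). *Bcl2a1d* was lower in PEP-619WW neutrophils too (25.6 against 35.5 CPM, -0.47), but higher in Gzmb-zero CD8 T (66.5 against 45.7 CPM, 0.54, 0.13 to 0.94) and Gzmb-high CD8 T (78.4 against 69.6 CPM, 0.17, 0.02 to 0.32). Its ratio in B barcodes was -0.03 (-0.20 to 0.15). *Mcl1* of run 1 was lower in PEP-619WW neutrophils (-0.22, -0.28 to -0.16) and plasma barcodes (-0.10, -0.14 to -0.06), and its ratio lay between -0.03 and 0.00 in the other 4 populations, with intervals that included 0. *Bcl2l1* had an interval that included 0 in 6 of 6 populations.

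The remaining BH3-only genes were higher in PEP-619WW where their interval excluded 0. *Pmaip1* was 18.3 against 12.5 CPM in B barcodes (log2 ratio 0.56, 0.36 to 0.75) and 18.1 against 12.3 CPM in plasma barcodes (0.56, 0.36 to 0.76). In B barcodes thinned to 1000 UMIs its ratio was -0.15. *Bbc3* was 24.0 against 13.3 CPM in CD4 T (0.85, 0.28 to 1.43), from 67 and 44 UMIs. In neutrophils of run 1 the median of all genes stood at -0.11 on the log2 scale, and relative to it *Bcl2l11* was at 0.34, *Bax* at -0.35, *Bcl2a1b* at -0.48 and *Mcl1* at -0.11.

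**Figure D3:**
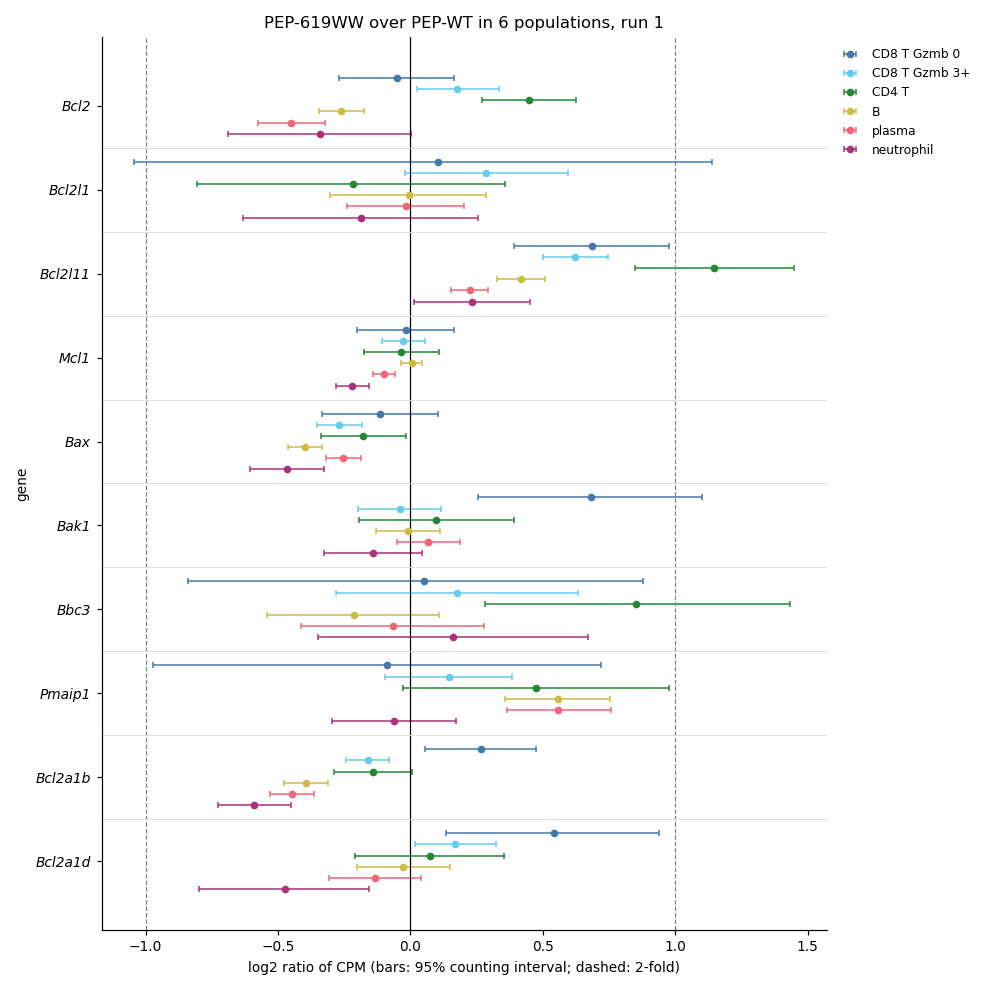
Log2 ratio of CPM, PEP-619WW over PEP-WT, for 10 BCL-2 family genes in 6 populations of run 1, with bars for the 95% counting interval and dashed lines at 2-fold. *Bcl2l11* lies right of 0 in 6 of 6 populations, reaching 1.15 in CD4 T, and *Bax* left of 0 in 6 of 6, from -0.47 to -0.11. These populations share the same libraries.

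The genotype libraries also differed in RNA of other cells, so the marker lists are given beside these ratios. In CD4 T barcodes of run 1 the 5 B cell markers summed to 525 CPM in PEP-WT and 256 CPM in PEP-619WW, and the 5 erythroid markers to 1525 and 49.1 CPM. No gene of either list was at 0 in PEP-WT, and *Alas2* of the erythroid list was at 0 in PEP-619WW. The 5 neutrophil markers summed to 1172 and 1088 CPM in CD4 T, but to 1560 and 3229 CPM in Gzmb-zero CD8 T. In B barcodes the erythroid sums were 2425 and 324 CPM, the sums of the 5 plasma cell markers 3971 and 6097 CPM and those of the neutrophil markers 1351 and 2740 CPM. Barcodes that met more than 1 gate were 23.7% and 30.5% of the B gate. In plasma barcodes, where these shares were 64.8% and 55.4%, the B cell markers summed to 1724 and 1274 CPM, the neutrophil markers to 988 and 1763 CPM and the erythroid markers to 1064 and 191 CPM. No gene of these lists was at 0 in the B or plasma gate. Other lists of run 1 differed in Gzmb-zero CD8 T, Gzmb-high CD8 T and neutrophil barcodes, given in that order as PEP-WT and PEP-619WW. Macrophage or monocyte markers summed to 539 and 1285, 992 and 657, and 6552 and 5784 CPM. Erythroid markers summed to 869 and 104, 1217 and 257, and 1959 and 905 CPM. Plasma cell markers summed to 2711 and 3801, 3077 and 4484, and 2283 and 3150 CPM. The part of this RNA in the ratios of the BCL-2 family was not tested.

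Only neutrophils reached 50 barcodes in both genotypes of run 2, with 590 PEP-WT and 1071 PEP-619WW barcodes. The median of all genes there was 0.21, 18.4% of genes were 2-fold apart and 42.1% were 1.5-fold apart, so the libraries differed more widely than in run 1. *Bcl2* was 7.67 CPM in PEP-WT, from 16 UMIs, and 25.8 CPM in PEP-619WW (log2 ratio 1.75, 0.98 to 2.61). *Bcl2l11* was 77.6 and 181 CPM (1.22, 0.97 to 1.47) and *Pmaip1* 30.7 and 62.1 CPM (1.02, 0.61 to 1.44). These 3 of 10 members were 2-fold apart. Relative to the median of all genes 2 remained so, with *Bcl2* at 1.53, *Bcl2l11* at 1.00 and *Pmaip1* at 0.80. The share of all genes 2-fold apart on that scale was not computed. *Bcl2l11* was thus higher and *Bax* lower (312 and 267 CPM, -0.22) in PEP-619WW neutrophils of both runs. The run 1 *Bcl2l11* ratio was small (0.23, 0.01 to 0.45) and was as low as 0.03 under other processing settings. *Bcl2*, higher in run 2, was not distinguishable from equal in run 1 (23.2 against 29.4 CPM, -0.34, -0.69 to 0.00). *Mcl1* was lower in PEP-619WW in run 1 and higher in run 2 (1754 against 1446 CPM, 0.28, 0.22 to 0.34). Relative to the median of all genes *Mcl1* was at only -0.11 in run 1 and 0.06 in run 2. The 5 neutrophil markers summed to 32567 and 30021 CPM in these barcodes, and to 76435 and 98061 CPM in run 1. In run 2 the 5 CD8 T markers summed to 29.2 and 148 CPM in these barcodes, the 4 CD4 T markers to 20.1 and 120 CPM and the 4 NK markers to 3.83 and 50.2 CPM. In run 1 the same sums were 414 and 247 CPM, 297 and 187 CPM, and 55.7 and 34.0 CPM. The NK markers *Ncr1* and *Klrb1c* were at 0 in PEP-WT of run 2. The T cell and NK sums were thus higher in PEP-619WW in run 2, as was *Bcl2*, whose level was higher in T cell gates than in neutrophils, and their part in its ratio was not tested.

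The split of CD8 T barcodes by *Gzmb* compared barcodes with and without granzyme B transcripts inside the same library, so no difference between libraries enters it. *Bcl2* showed the widest gap of the family in PEP-WT and in both PEP-619WW libraries. In PEP-WT run 1 it was 202 CPM (188 to 218) in Gzmb-zero and 67.2 CPM (62.0 to 72.8) in Gzmb-high barcodes, a log2 ratio of -1.59 (-1.75 to -1.43). In PEP-619WW run 1 the levels were 195 and 76.0 CPM (-1.36, -1.58 to -1.14), and in PEP-619WW run 2 they were 150.1 and 41.4 CPM (-1.86, -2.33 to -1.41). The intervals of the Gzmb-zero and Gzmb-high levels did not overlap in any of these 3 libraries. At full depth 62.0% of Gzmb-zero and 42.0% of Gzmb-high barcodes of PEP-WT run 1 had a *Bcl2* UMI, and 13.2% of neutrophils, the lowest population. Thinned to 1000 UMIs, the shares were 22.0% (18.4 to 26.0), 9.48% (7.53 to 11.7) and 2.06% (1.18 to 3.33). In PEP-619WW run 1 the thinned shares were 19.0% (12.4 to 27.1), 10.3% (8.20 to 12.8) and 2.73% (1.72 to 4.10). In PEP-619WW run 2 they were 15.8% (11.5 to 21.1), 9.78% (4.57 to 17.8) and 1.99% (1.18 to 3.12). The intervals of the CD8 T gates overlapped in both PEP-619WW libraries and not in PEP-WT run 1.

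Other members were higher in Gzmb-high barcodes. *Bcl2l1* was 8.63 and 17.1 CPM in PEP-WT run 1 (log2 ratio 0.99, 0.41 to 1.60) and 9.27 and 20.8 CPM in PEP-619WW run 1 (1.17, 0.30 to 2.19), where the Gzmb-zero side rests on 11 UMIs. In PEP-619WW run 2, with 25.3 and 27.6 CPM, the ratio was 0.12 (-0.59 to 0.83). For *Pmaip1*, PEP-WT had 15.2 and 28.7 CPM (0.91, 0.48 to 1.36). PEP-619WW had 14.3 and 31.7 CPM in run 1 (1.15, 0.44 to 1.94) and 19.3 and 29.2 CPM in run 2 (0.60, -0.15 to 1.35). *Bcl2a1b* had ratios of 0.51 in PEP-WT, 0.08 (-0.10 to 0.27) in PEP-619WW run 1 and 0.63 in run 2, and *Bcl2a1d* 0.61, 0.24 (-0.10 to 0.59) and 1.06. *Bak1* was 38.8 and 70.2 CPM in PEP-WT (0.85, 0.58 to 1.13) and had ratios of 0.13 and 0.32 in PEP-619WW, with intervals that included 0.

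*Bbc3* was lower in Gzmb-high barcodes, with 13.8 and 8.15 CPM in PEP-WT (-0.76, -1.30 to -0.20), -0.64 in PEP-619WW run 1 and -0.80 in run 2, the latter 2 with intervals that included 0. *Mcl1* changed little in run 1 (-0.08 and -0.09) and was lower in Gzmb-high barcodes of run 2 (408 and 318 CPM, -0.36, -0.55 to -0.17). *Bcl2l11* was 0.22 (0.02 to 0.42) in PEP-WT, 0.16 (-0.08 to 0.41) in PEP-619WW run 1 and -0.60 (-1.11 to -0.11) in run 2. *Bax* had ratios of 0.28 in PEP-WT, 0.13 in PEP-619WW run 1 and 0.49 in run 2.

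In all, 1 member was 2-fold apart in PEP-WT run 1 (0 up and 1 down, background 10.1%), 3 in PEP-619WW run 1 (2 up and 1 down, 11.5%) and 2 in PEP-619WW run 2 (1 up and 1 down, 10.3%). At 1.5-fold the counts were 6 (background 25.1%), 4 (24.9%) and 6 (28.9%). The member median was 0.40, 0.13 and 0.22, beside 0.02, 0.03 and 0.00 over all genes. The Gzmb-high gate takes deeper barcodes (median 7521 against 4865 UMIs in PEP-WT run 1, 9170 against 6296 in PEP-619WW run 1 and 11307.5 against 3624 in PEP-619WW run 2). Neutrophil markers summed to 1560 CPM in Gzmb-zero and 2174 CPM in Gzmb-high barcodes of PEP-WT run 1. They summed to 3229 and 1281 CPM in PEP-619WW run 1 and to 241 and 380 CPM in PEP-619WW run 2. Macrophage or monocyte markers summed to 539 and 992, 1285 and 657, and 2215 and 1276 CPM in these libraries. The part of this RNA in the ratios was not tested.

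**Figure D4:**
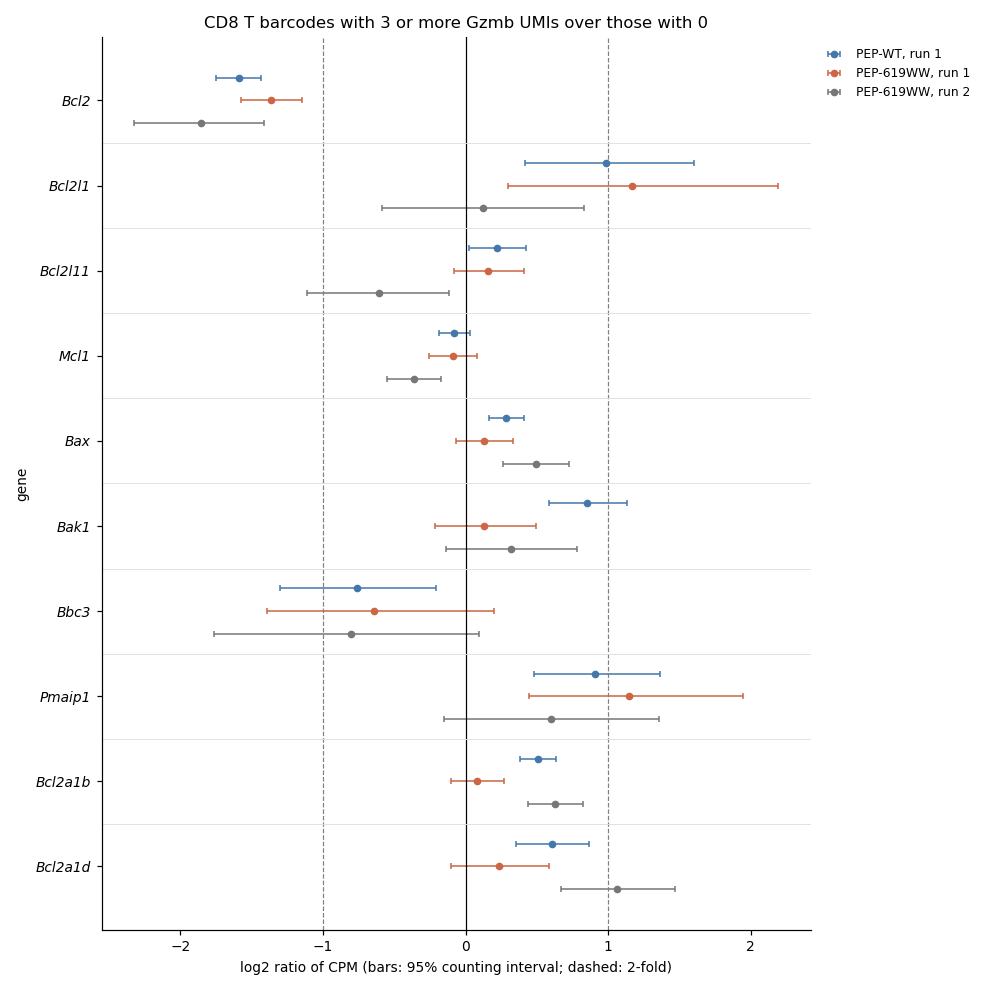
Log2 ratio of CPM, CD8 T barcodes with at least 3 *Gzmb* UMIs over those with 0, for 10 BCL-2 family genes in the 3 libraries with at least 50 barcodes on each side, with bars for the 95% counting interval and dashed lines at 2-fold. *Bcl2* lies left of 0 in 3 of 3 libraries at -1.59, -1.36 and -1.86, and *Pmaip1* right of 0 at 0.91, 1.15 and 0.60.

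The wider pathway was read from 7 lists with 68 further genes: other guardians, other BH3-only and effector genes, apoptosome and caspases, inhibitors of apoptosis, the death receptor pathway, p53 targets, and upstream survival signals. In the *Gzmb* split, 7 of 63 measured genes were at least 2-fold higher and 2 lower in PEP-WT run 1, 5 and 2 of 62 in PEP-619WW run 1, and 4 and 3 of 56 in PEP-619WW run 2. Over all genes the shares 2-fold apart in either direction were 10.1%, 11.5% and 10.3%, so these counts do not set the lists apart. *Fasl*, the ligand with which cytotoxic cells kill through the FAS death receptor, was 4.89 CPM in Gzmb-zero and 31.7 CPM in Gzmb-high barcodes of PEP-WT (log2 ratio 2.70, 1.99 to 3.50). It was 1.68 and 25.6 CPM in PEP-619WW run 1, from 2 and 264 UMIs (3.92, 2.06 to 6.98), and 21.3 and 47.9 CPM in run 2 (1.17). *Il7r*, the receptor for interleukin-7, which sustains BCL-2 in resting T cells, was lower in Gzmb-high barcodes, with 185 and 27.5 CPM in PEP-WT (-2.75), 169 and 38.5 CPM in PEP-619WW run 1 (-2.14) and 342 and 104 CPM in run 2 (-1.72). Both receptor and *Bcl2* were lower in the Gzmb-high gate of the 3 libraries, and a link between them was not tested.

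Between genotypes, 2 list genes of 53 were at least 2-fold higher and 2 lower in PEP-619WW Gzmb-zero CD8 T of run 1, 2 and 2 of 63 in Gzmb-high CD8 T, 0 and 3 of 59 in CD4 T, 0 and 1 of 60 in neutrophils, and 0 of 63 in B and of 64 in plasma barcodes. The shares over all genes were 5.92%, 4.75%, 4.92%, 5.54%, 4.51% and 4.15% in that order, and these counts do not set the lists apart. *Trp53inp1*, a p53 target, was 120 and 270.4 CPM in Gzmb-zero CD8 T (log2 ratio 1.17, 0.96 to 1.39) and 83.4 and 192 CPM in Gzmb-high CD8 T (1.20, 1.08 to 1.33). It was just under 2-fold in CD4 T (114 and 228 CPM), B (117 and 231 CPM) and neutrophil barcodes (116 and 229 CPM), with ratios of 1.00, 0.98 and 0.98, and was at 0.68 in plasma barcodes (312 and 499 CPM). In run 2 neutrophils it was 24.0 and 25.8 CPM (0.10, -0.40 to 0.62). *Bcl2a1a*, the A1 copy named above, was 16.9 and 7.88 CPM in CD4 T (-1.10, -1.89 to -0.37), from 56 and 22 UMIs, and its ratio was below 0 in 6 of 6 populations of run 1, with an interval that included 0 in Gzmb-zero CD8 T (-0.26, -1.44 to 0.79, from 35 and 10 UMIs). In run 2 neutrophils it was higher in PEP-619WW (73.3 and 98.4 CPM, 0.42, 0.15 to 0.70). These values carry the uncertainty of the copies. In Gzmb-high CD8 T the guardian *Bcl2l2* had a ratio of 1.09, and *Bcl2l14* was at -1.23 there and at -1.34 (-2.96 to 0.05) in CD4 T. In neutrophils *Bcl2l14* was at -2.54 in run 1, from 41 and 7 UMIs, and at 2.56 (0.54 to 5.70) in run 2, from 2 and 22 UMIs. *Il2ra*, a subunit of the interleukin-2 receptor, was 2.88 and 10.95 CPM in Gzmb-zero CD8 T (1.93), from 10 and 13 UMIs, and its ratio was -0.05 in Gzmb-high CD8 T and -0.08 in CD4 T. *Csf3r*, 1 of the 5 neutrophil markers, was lower in PEP-619WW Gzmb-zero CD8 T (-1.45), Gzmb-high CD8 T (-2.16) and CD4 T (-1.12). The summed list did not follow it in Gzmb-zero CD8 T, where it was 1560 CPM in PEP-WT and 3229 CPM in PEP-619WW, and was 2174 and 1281 CPM in Gzmb-high CD8 T and 1172 and 1088 CPM in CD4 T. The B cell receptor for BAFF, *Tnfrsf13c*, was at -1.14 in Gzmb-zero CD8 T. In run 2 neutrophils 14 of 58 list genes were at least 2-fold higher in PEP-619WW and 3 lower, beside the 18.4% of all genes that were apart there.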

How the data were processed

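Single-cell libraries (10x Genomics 3′ v3.1 chemistry) were aligned and counted by the authors with Cell Ranger (6.1.1 in the methods, 6.0.0 in the submitters' processing notes) on an mm10 mouse transcriptome. The deposited files hold raw counts (integer UMIs of each gene in each barcode, not normalized) for 32285 genes, and a symbol was found for 32158. Libraries held 55504449 to 77916082 UMIs. No source used here says that doublets were removed before deposit. No doublet caller was run, and barcodes in more than 1 gate were left out as an alternative. No further barcode filter was applied.

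The 10 genes, the gates, the gene lists and the marker lists were chosen with earlier results of these data known. UMIs were summed per gate, library and run and divided by the total UMIs of the gate (CPM). Intervals are exact Poisson for CPM, exact conditional binomial for ratios and Clopper-Pearson for shares, all at 95% and for counting error only. With 1 library per genotype and run, no test was made. A gene was measured with at least 20 UMIs over both sides and called at 2-fold. The list genes named are those past 2-fold in both genotypes (*Gzmb* split) or in run 1 (genotype), at most 5 per list, and 1 gene that met this rule is not reported here; *Trp53inp1* in further populations and in run 2, *Bcl2a1a* in the other populations and in run 2, *Bcl2l14* in neutrophils, and *Il2ra* in other gates were added after their values were seen. Genes most like a member were ranked by Pearson correlation over the 12 sums of run 1 among genes with at least 100 UMIs. Shares were also computed after thinning barcodes to 1000 UMIs, which left out 1 PEP-WT Gzmb-zero, 0 Gzmb-high and 30 neutrophil barcodes, and 6, 0 and 57 in PEP-619WW (run 1). In simulated CD4 T sums of 9012 genes with 200 changed 4-fold, 99.5% of changes were recovered, counting ratios left undefined by a 0 count. Of the intervals 95.7% held the true ratio, and 52 unchanged genes passed 2-fold. The simulated counts were Poisson draws, as the intervals assume, so the arithmetic was checked and not the spread between cells, mice or libraries. Coordinates are GENCODE vM21 (GRCm38). Python 3.11.15, NumPy 2.4.6, SciPy 1.17.1 and pandas 2.3.3 were used.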

Additional observations from a re-analysis of the deposited data

Results flagged for a closer look

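The genotype ratios of the same gene lay on opposite sides of 0 in pairs of populations or runs, with counting intervals that excluded 0 on each side and a difference of at least 1.5-fold. These differences were not tested, since each genotype had 1 library per run. For *Bcl2* the log2 ratio of PEP-619WW over PEP-WT was 0.45 in CD4 T and -0.45 in plasma barcodes of run 1, a difference of 0.90. For *Bcl2a1b* the ratios were 0.27 in Gzmb-zero CD8 T and -0.59 in neutrophils, 0.86 apart, and for *Bcl2a1d* they were 0.54 and -0.47, 1.02 apart. The *Bcl2a1d* ratio in neutrophils was -0.47 in run 1 and 0.71 in run 2, a difference of 1.18, and the shared sequence of the *Bcl2a1* copies leaves its count uncertain.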

How the results depend on the processing

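Of 757 member ratios recomputed under alternatives to the main setting, 654 stayed within the counting interval of the main value and 103 moved outside it. The alternatives include other minimum UMI counts, which change which genes are measured but not the ratio of a measured gene. Those ratios were the same by construction, so the counts of kept ratios and signs overstate how stable the ratios are. The sign was kept in 702 of the 757, in 55 of 55 for members past 2-fold and in 647 of 702 for those under it. Counts of members at least 2-fold apart were within 1.5 times the main count in 70 of 85 cases. At 1.5-fold in place of 2-fold the counts between genotypes were 2 in Gzmb-zero CD8 T, 1 in Gzmb-high CD8 T, 2 in CD4 T and 1 in neutrophils, and 6 in the PEP-WT *Gzmb* split. The counts that follow are again at 2-fold. Except in run 2, the share of all genes apart was not computed under these settings, so these counts have no background beside them. With the mean over barcodes of the CPM, 1 member was apart in Gzmb-zero CD8 T and 3 in the PEP-WT split. After thinning to 1000 UMIs the counts were 1 in Gzmb-zero CD8 T, 0 in CD4 T, 1 in plasma barcodes and 4 in the PEP-WT split, where fewer UMIs were counted. Without barcodes in more than 1 gate they were 1 in plasma, 1 in neutrophils and 2 in the PEP-WT split. Run 2 gave 3 in neutrophils, and 5 of 10 members had the same highest population as in run 1 of PEP-619WW. The gap in the share of barcodes with a *Bcl2* UMI, Gzmb-high minus Gzmb-zero, was -20.0 percentage points in PEP-WT and -12.5 after thinning. The cause of these moves was otherwise not tested. Except for neutrophils and the PEP-619WW *Gzmb* split, run 2 held under 50 barcodes on a side and gave no ratio. No paired analysis was possible because the labels carry no replicate numbers and each genotype had 1 library per run.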
